A study of Mus musculus with 30 samples.

Results

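The genes described here encode the proteasome and the enzymes that attach ubiquitin to proteins or take it off, in blood leukocytes of mice given cyclophosphamide. They were chosen by name: array probes with 1 gene symbol beginning with Psma to Psmg and a number, Ube2, Ube3, Uba and a number, Usp and a number, Uch, or Cul and a number, with Ube2c and Ube2l6 left out. There were 97 such symbols among the 9616 on the array, and 58 of them had enough values to be tested, among 6515 tested array features in all. A gene was tested when it had a value in at least 3 untreated, 3 day 1, 3 day 2 and 2 day 5 samples. The other 39 symbols were not tested, 15 of them because no sample had a value.

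Ubiquitin is a small protein that is passed from an activating enzyme (E1) to a conjugating enzyme (E2) and then, with a ligase (E3), onto a target protein. Chains of ubiquitin mark many targets for the proteasome, a barrel of alpha and beta subunits (20S) capped by a regulatory particle (19S) or by other activators, while deubiquitinases remove the mark. Cullins are the scaffolds of a large class of ligases and are themselves switched on by the ubiquitin-like protein NEDD8. Interferon can exchange 3 of the catalytic beta subunits for those of the immunoproteasome and also induces ISG15, another ubiquitin-like protein with its own E1, Uba7.

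Mice of the inbred strain DBA/2 received 83 mg per kg of cyclophosphamide, an alkylating drug toxic to dividing blood cell precursors, into the peritoneum, and blood leukocytes were taken at day 1 (4 samples), day 2 (4 samples) or day 5 (3 samples). The control group was 4 samples from untreated DBA/2 mice. Each sample was measured in 2 technical replicates, which were averaged. Each value is the log2 ratio of the blood sample (Cy5) over pooled bone marrow cells of the same strain (Cy3); one label of this pool calls it untreated and another names the drug, so only differences between blood groups are tested. The labels give no sex or age, and they describe the samples as independently harvested without saying how many mice each holds. In bulk samples, fewer cells of a type and less RNA per cell cannot be told apart.

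Values were present for 39.5% to 69.9% of probes, depending on the column, and technical replicates correlated with r between 0.814 and 0.971 over the probes of these genes. Marker genes of several blood cell types differed between the groups, which does not tell a change of cell numbers from one of RNA per cell. At day 2, 5 of 8 tested mature neutrophil markers were higher and 5 of 6 monocyte markers lower than in untreated blood. Of the lymphocyte markers, 3 of 5 natural killer (NK) and 2 of 6 B cell ones were lower at day 2, and 2 of 5 NK and 3 of 6 B cell ones at day 5. Of the 2 tested T cell markers, 1 was higher and 0 lower at day 2, and none differed at day 5. At day 1, 4 of 6 platelet markers were higher and 3 of 6 monocyte markers lower. Between day 5 and day 2, 4 of 6 monocyte markers were higher and 4 of 8 neutrophil markers lower. These counts are at an adjusted p under 0.05 in limma's moderated test. Of all tested features, 4.60% differed from untreated blood at day 1, 12.7% at day 2 and 1.09% at day 5. Day 5 differed from day 2 in 25.5% of them. The mean of the 8 neutrophil markers lay between -0.38 and 0.24 in day 2 samples and between -1.11 and -0.70 in untreated samples. That of the 4 monocyte markers with values in every sample lay between -0.24 and -0.15 in day 2 samples and between 0.66 and 1.20 in untreated samples. The part of these shifts in the results below was not tested.

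Uba7 and Psmb10 fell at day 2 under every processing alternative tried, so the 250 bases before their start sites are shown, read 5′ to 3′ along each gene's strand, from RefSeq on GRCm38.p6. The Uba7 window is chr9:107975317-107975566 on the plus strand and the Psmb10 window is chr8:105938393-105938642 on the minus strand. Capitals mark matches to any of 4 motifs searched on both strands.
Uba7: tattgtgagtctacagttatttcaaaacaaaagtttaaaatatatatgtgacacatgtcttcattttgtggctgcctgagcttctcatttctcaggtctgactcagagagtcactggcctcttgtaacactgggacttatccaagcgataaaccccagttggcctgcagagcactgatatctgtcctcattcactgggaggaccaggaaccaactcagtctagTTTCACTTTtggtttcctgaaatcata
Psmb10: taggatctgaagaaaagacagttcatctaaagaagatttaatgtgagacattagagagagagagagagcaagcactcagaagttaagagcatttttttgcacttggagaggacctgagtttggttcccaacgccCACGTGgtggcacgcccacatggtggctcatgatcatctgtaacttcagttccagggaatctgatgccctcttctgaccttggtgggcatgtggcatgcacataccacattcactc
The motifs were the interferon-stimulated response element, AAANNGAAA, its core, which lies inside the longer element, AGATAA, bound by GATA factors, and CACGTG, an E-box. They were picked with the results known. Uba7 had 1 match, to the core on the minus strand from -27 to -19, and Psmb10 had 1, to the E-box from -116 to -111. Of 32851 RefSeq mouse promoters, 2.98% held the longer element, 9.37% the core, 9.99% the GATA site and 6.02% the E-box. Among the 54 promoter entries of 46 tested genes, 2, 4, 3 and 6 held them in that order.

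Against untreated blood, limma's moderated test with Benjamini-Hochberg adjustment called 2 of the 58 (3.45%) at day 1, where 4.60% of all tested features were called. At day 2 it called 3 of the 58 (5.17%), where 12.7% of features were called, and at day 5 it called 0 of the 58, where 1.09% were called. At an unadjusted p under 0.05 there were 4, 12 and 12 genes (6.9%, 20.7% and 20.7% of the 58), beside 21.1%, 26.7% and 17.4% of all features. No test compared the shares of the 58 with those of all features. The median size of the change, without its sign, was 0.142, 0.187 and 0.203 over the 58 and 0.170, 0.195 and 0.173 over all features. Both day 1 calls were lower (2.29% of all features were higher and 2.32% lower). At day 2, 1 gene was higher and 2 were lower (4.83% of all features were higher and 7.84% lower), and at day 5 the shares over all features were 0.261% higher and 0.829% lower. With the sign kept, and with 28, 30 and 29 of the 58 positive, day 1 gave a median change over the 58 of -0.015, day 2 one of 0.0097 and day 5 one of -0.0081, beside 0.032, 0.059 and 0.0044 over all tested features. The moderated F test for any difference between the 4 groups called 10 of the 58, where 22.7% of all features were called. Day 5 differed from day 2 in 11 of the 58, where 25.5% of features were called, with 6 higher and 5 lower (12.8% and 12.7% of all features).

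**Figure D1:**
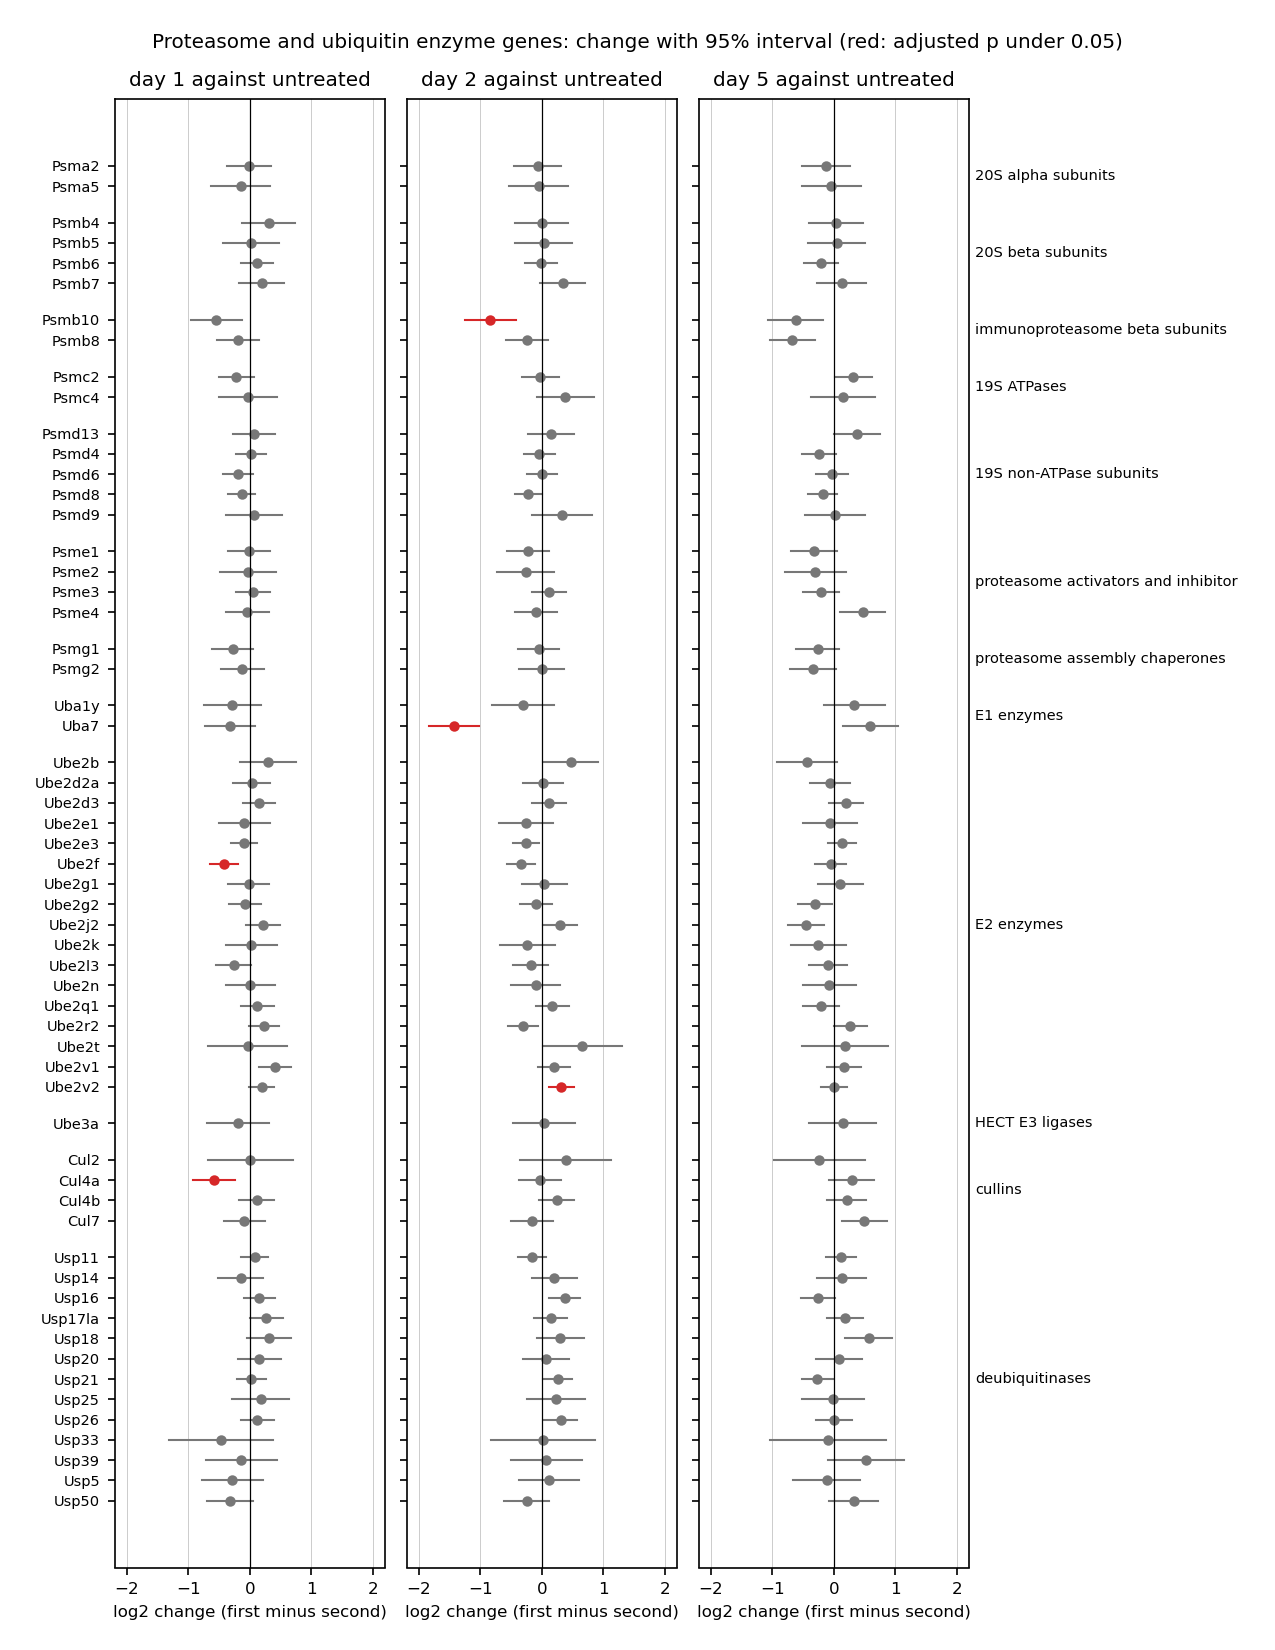
Log2 change of each of the 58 genes (points) with its 95% interval (lines) at day 1, day 2 and day 5 against untreated blood, grouped by family, with genes at an adjusted p under 0.05 in red. Red points are Ube2f and Cul4a at day 1 and Uba7, Psmb10 and Ube2v2 at day 2.

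Among the tested standard proteasome subunits no change was called against untreated blood. The array held 8 alpha and 6 beta subunits of the 20S core, of which 2 and 4 were tested. Of the 19S particle it held 5 ATPases and 11 other subunits, of which 2 and 5 were tested. None of the 13 tested 20S and 19S subunits was called at day 1, day 2 or day 5 against untreated blood, where 4.60%, 12.7% and 1.09% of all features were, and 0, 0 and 2 had an unadjusted p under 0.05. With 13 genes these counts are not told apart from the background. Every one of their 95% intervals lay within 1 log2 unit of 0, as did those of 91.2%, 88.6% and 91.7% of all features. The median size of their change was 0.118, 0.053 and 0.129 on the 3 days. Their group means had a median of -0.19 in untreated blood, -0.17 at day 1, -0.16 at day 2 and -0.14 at day 5. The catalytic subunits Psmb5, Psmb6 and Psmb7, which carry the 3 cutting activities of the standard core, changed at day 2 by 0.03, -0.01 and 0.34, with adjusted p of 0.951, 0.956 and 0.229. With technical replicate 2 alone, Psmb7 changed by 0.59 and was called (adjusted p = 0.0472). Psmc2, an ATPase of the 19S particle, was the 1 standard subunit called in any comparison, 0.54 higher at day 5 than at day 1 (adjusted p = 0.0187). It stood at 0.11, 0.35 and 0.29 at day 5 and at -0.22, -0.22, -0.27 and -0.44 at day 1.

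Psmb10, a catalytic subunit of the immunoproteasome, fell at day 2. It stood at -0.30, -0.18, 0.08 and 0.24 in day 2 samples, against 0.70, 0.51, 0.97 and 1.01 in untreated samples. The groups did not overlap, and the change was -0.84 (SE 0.19, adjusted p = 0.00939). At day 1 it stood at 0.03, 0.68, 0.11 and 0.19, a change of -0.55 that was not called (adjusted p = 0.116). At day 5 it stood at -0.18, 0.66 and 0.06, a change of -0.62 (adjusted p = 0.167). After quantile normalization of the columns both were called, with adjusted p of 0.0259 at day 1 and 0.0391 at day 5.

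The other immunoproteasome genes were not called against untreated blood. Psmb8, which replaces Psmb5, stood at -0.27, -0.38 and -0.08 at day 5, against 0.40, 0.11, 0.49 and 0.72 in untreated samples. Those samples did not overlap, with a change of -0.68 and an adjusted p of 0.0727. Without untreated replicate 2 this change was called (adjusted p = 0.0440). Psmb9 had no value in any sample. Psme1 and Psme2, the subunits of the interferon-induced 11S activator, changed at day 5 by -0.33 (adjusted p = 0.350) and -0.30 (adjusted p = 0.535). The Psme2 value averages 2 probes, of which 1 had values in only 6 samples, and the probe with values in all 15 gave -0.52 (adjusted p = 0.177). That probe was called at day 5 against day 1, with -0.70 (adjusted p = 0.0149), where the averaged gene changed by -0.27 (adjusted p = 0.440).

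Because Psmb10 replaces Psmb7 and Psmb8 replaces Psmb5 when the immunoproteasome is built, the difference within each pair was also compared, a choice made after the values of Psmb10 were seen. Psmb10 minus Psmb7 averaged -0.06 ± 0.20 at day 2 and 1.12 ± 0.47 in untreated samples (SD, n = 4 each). The exact two-sided permutation p was 0.0286, the smallest that 4 against 4 samples allow. None of the 6 tests of the pairs on the 3 days passed adjustment, and this one had an adjusted p of 0.171. With so few samples, even the smallest possible exact p-values in all 6 tests would not have passed adjustment. The adjusted values therefore cannot decide whether the pair differences changed. For Psmb8 minus Psmb5, with 3 samples a group, the exact p lay between 0.20 and 0.90, and 3 against 3 cannot go below 0.10.

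Psme4, the nuclear activator PA200, was higher at day 5 than at day 2. It stood at -0.28, -0.47 and 0.41 at day 5, against -0.37, -0.82, -0.66 and -0.87 at day 2. The groups overlap, and the change was 0.56 (SE 0.18, adjusted p = 0.0278). It lost its call without day 2 replicate 2, 3 or 4 or day 5 replicate 3, and its adjusted p ranged up to 0.128 over all alternatives.

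Uba7, which activates ISG15, had the largest change of the 58 genes in the comparison of day 2 with untreated blood. It stood at -1.23, -1.80, -1.05 and -1.04 at day 2, against -0.09, 0.06, 0.35 and 0.28 in untreated samples. Every day 2 sample lay below every untreated one, with a change of -1.43 (SE 0.19, adjusted p = 0.000174). At day 1 it stood at -0.25, -0.52, 0.12 and -0.06, a change of -0.33 that was not called (adjusted p = 0.356). At day 5 it stood at 1.14, 0.62 and 0.48, all above the untreated samples, but its change of 0.59 was not called (adjusted p = 0.181).

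The difference between the days was itself called for Uba7. It was 2.02 higher at day 5 than at day 2 (SE 0.21, adjusted p = 8.00e-06) and 1.10 lower at day 2 than at day 1 (adjusted p = 0.0260). Those of the 58 called at day 2 against day 1 were Uba7 and Ube2r2, 2 genes where 1.15% of features were called, both lower (0.537% of all features were higher and 0.614% lower). At day 5 against day 1, 9 of the 58 were called, where 18.8% of features were. Of these, 6 were higher (9.67% of all features), namely Uba7 by 0.92, Cul4a by 0.87, Usp50 by 0.64, Cul7 by 0.59, Psmc2 by 0.54 and Ube2f by 0.37, with adjusted p between 0.00335 and 0.0404. The 3 lower ones (9.09% of all features) were Ube2b with -0.73, Ube2j2 with -0.67 and Usp16 with -0.41.

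**Figure D2:**
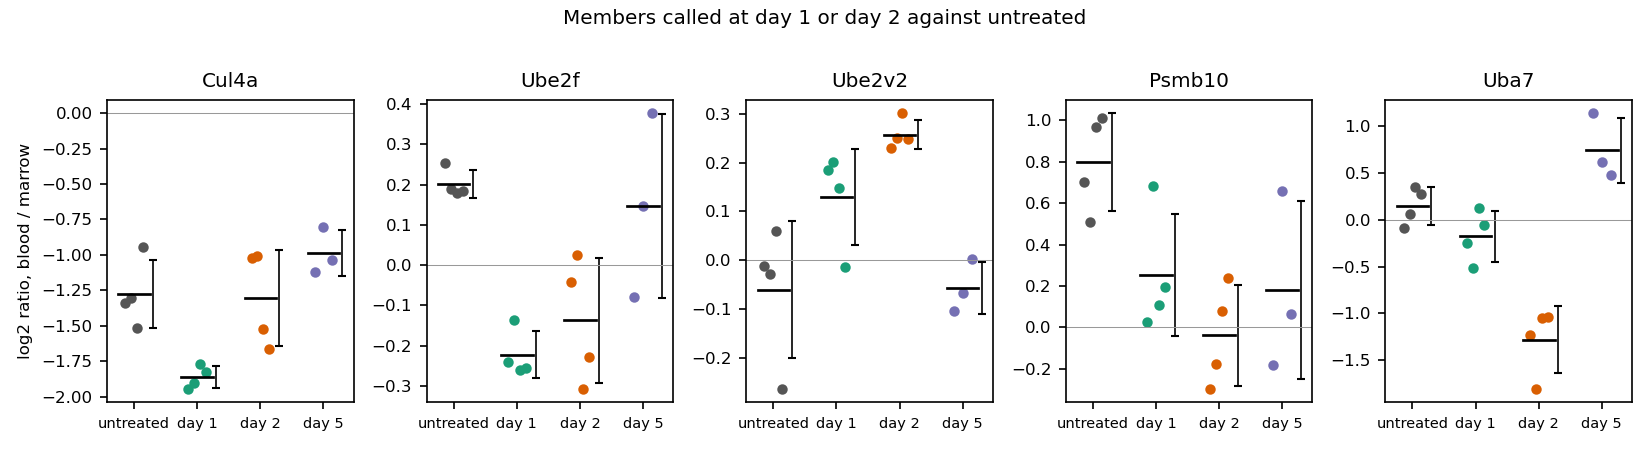
Log2 ratio of blood over marrow in each sample (points), with group means (lines) and SD (bars), for the 5 genes called at day 1 or day 2 against untreated blood. Day 2 samples of Uba7 lie between -1.80 and -1.04, below all untreated samples, and day 1 samples of Cul4a lie between -1.94 and -1.77.

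Other genes were also lower at day 2 than in untreated blood and higher at day 5 than at day 2. They were named with their values known, and features with this pattern were not counted. Ube2l6, the ISG15 E2 that the naming rule leaves out, changed by -2.41 at day 2 (adjusted p = 0.00140) and was 2.21 higher at day 5 than at day 2 (adjusted p = 0.00237). Sae1, a subunit of the E1 of the ubiquitin-like protein SUMO, changed by -1.74 at day 2 (adjusted p = 8.14e-05) and was 2.10 higher at day 5 than at day 2 (adjusted p = 7.61e-06). The red cell gene Alas2, of the first step of haem synthesis, changed by -2.83 at day 2 (adjusted p = 0.000243) and was 3.57 higher at day 5 than at day 2 (adjusted p = 3.01e-05). Day 1 was less alike: Uba7 changed by -0.33 and Ube2l6 by -1.52 (adjusted p = 0.0544). Sae1 stood at -0.74, -0.73, -0.30 and -0.36 at day 1, against -0.03, 0.33 and 0.23 in untreated samples. Alas2 stood at -1.73, -1.60, -0.73 and -1.15 at day 1, against -0.47, -0.30, 0.39 and 0.77 in untreated samples.

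Lists of related genes did not all follow these. Of 14 tested erythroid markers, 2 were lower at day 2 than in untreated blood and 0 higher, with a median change of -0.19. In that comparison 7.84% of all features were lower and 4.83% higher. The mean of the 11 with values in every sample lay between -1.05 and -0.64 in day 2 samples and between -0.72 and -0.28 in untreated samples. Of 9 tested interferon-stimulated genes, 2 were higher at day 2, Gbp2 by 1.22 and Irf9 by 0.55, and 1 was lower, Ube2l6. At day 5 against untreated blood, 2 of the 9 were lower and 0 higher (0.829% and 0.261% of all features). At day 5 against day 2, 4 of the 9 were lower and 1 higher (12.7% and 12.8% of all features). Usp18, the protease that removes ISG15 and is one of the 58, changed by 0.30 at day 2 (adjusted p = 0.303) and by 0.57 at day 5 (adjusted p = 0.144). The first was called with technical replicate 1 alone and the second without day 5 replicate 3 (adjusted p = 0.0281). The part of red cell precursors or of interferon in the Uba7 result was not tested.

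**Figure D3:**
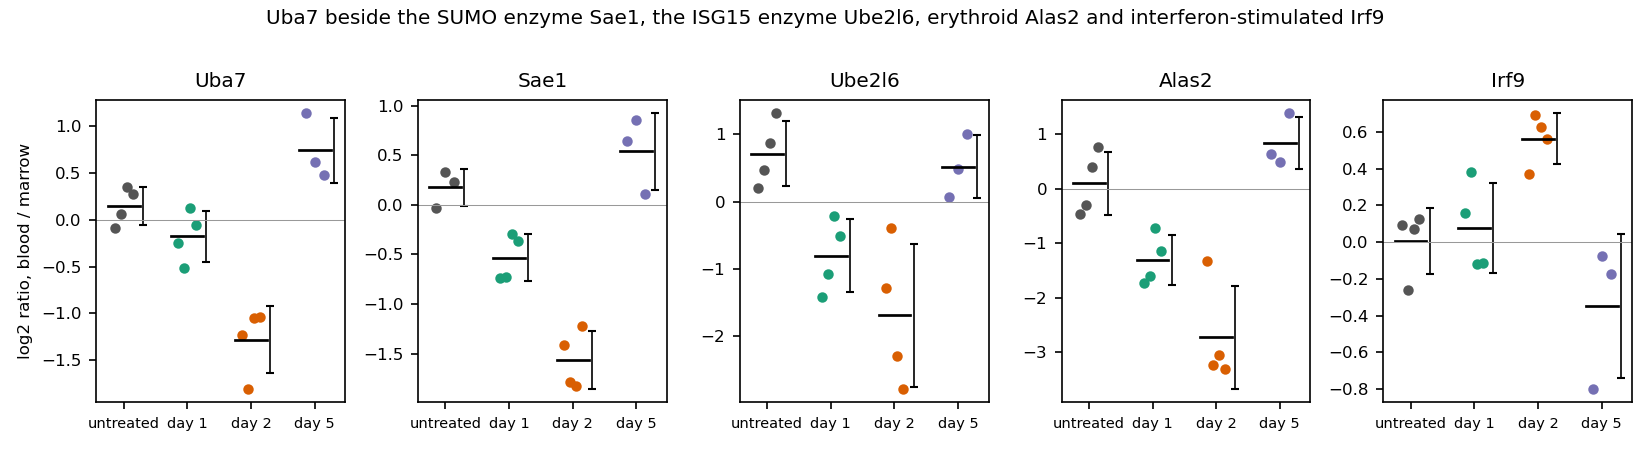
Log2 ratio of blood over marrow in each sample (points), with group means (lines) and SD (bars), for Uba7, Sae1, Ube2l6, Alas2 and Irf9. Uba7, Sae1, Ube2l6 and Alas2 are lowest at day 2 by group mean, where Irf9 is highest.

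Among the 17 tested E2 enzymes, Ube2f fell at day 1 and Ube2v2 rose at day 2. Ube2f, which carries NEDD8 to cullins, stood at -0.24, -0.14, -0.26 and -0.26 at day 1, against 0.25, 0.19, 0.18 and 0.18 in untreated samples. The groups did not overlap, and the change was -0.42 (SE 0.11, adjusted p = 0.0417). At day 2 its change was -0.34 (adjusted p = 0.0554), called in 6 of the 23 alternatives, among them those without day 2 replicate 2, day 5 replicate 1 or day 5 replicate 3. Its call at day 1 was lost when any 1 of the 4 day 1 or 4 untreated samples was left out, with an adjusted p of up to 0.172 over all alternatives.

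Ube2v2, an E2 variant without catalytic activity that pairs with Ube2n to build chains linked through lysine 63 of ubiquitin, stood at 0.23, 0.25, 0.30 and 0.25 at day 2, against -0.01, -0.03, 0.06 and -0.26 in untreated samples. All day 2 samples lay above the untreated ones, with a change of 0.32 (SE 0.09, adjusted p = 0.0386). The call was lost without untreated replicate 1, 2 or 4, day 1 replicate 1 or any day 2 replicate, with an adjusted p of up to 0.132. Ube2v1, the related partner of Ube2n, changed by 0.40 at day 1 (adjusted p = 0.0712), which was called after quantile normalization or without day 1 replicate 3, and the largest uncalled changes of an E2 at day 2 were 0.66 for Ube2t, which acts in the Fanconi anaemia pathway of DNA crosslink repair, and 0.47 for Ube2b. Without untreated replicate 1 Ube2t changed by 0.96 and was called (adjusted p = 0.0312), and without day 2 replicate 2 Ube2b changed by 0.74 and was called (adjusted p = 0.00415).

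Between day 5 and day 2, 5 of the 17 E2 enzymes were called (29.4%), near the 25.5% of all features. Ube2r2, an E2 that works with cullin ligases, stood at 0.72, 0.32 and 0.59 at day 5, against -0.03, -0.02, -0.08 and 0.02 at day 2. All day 5 samples lay above the day 2 ones, with a change of 0.57 (SE 0.12, adjusted p = 0.00313). Ube2r2 was also 0.54 lower at day 2 than at day 1 (adjusted p = 0.0397). Ube2e3 stood at -0.72, -0.48 and -0.44 at day 5, against -0.87, -1.01, -0.93 and -0.97 at day 2, without overlap, and its change was 0.40 (adjusted p = 0.0117).

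Ube2b, Ube2j2 and Ube2v2 were lower at day 5 than at day 2. Ube2b, a mouse Rad6 homologue that ubiquitinates histone H2B and PCNA, stood at 0.45, -0.08 and 0.36 at day 5, against 1.45, 0.34, 1.27 and 1.53 at day 2, which overlap, and its change was -0.90 (adjusted p = 0.00906). Without day 5 replicate 2 the call was lost (adjusted p = 0.0615). Ube2j2, an E2 of the endoplasmic reticulum membrane, stood at -0.27, -0.28 and 0.06 at day 5, against 0.61, 0.76, 0.52 and 0.47 at day 2, without overlap, with a change of -0.75 (adjusted p = 0.000972). Its 2 probes with values in all samples gave -0.73 (adjusted p = 0.00550) and -0.67 (adjusted p = 0.00132). Ube2v2 changed by -0.31 at day 5 against day 2 (adjusted p = 0.0342), a call lost without any 1 of the 4 day 2 samples or day 5 replicate 1 or 2, with an adjusted p of up to 0.124.

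**Figure D4:**
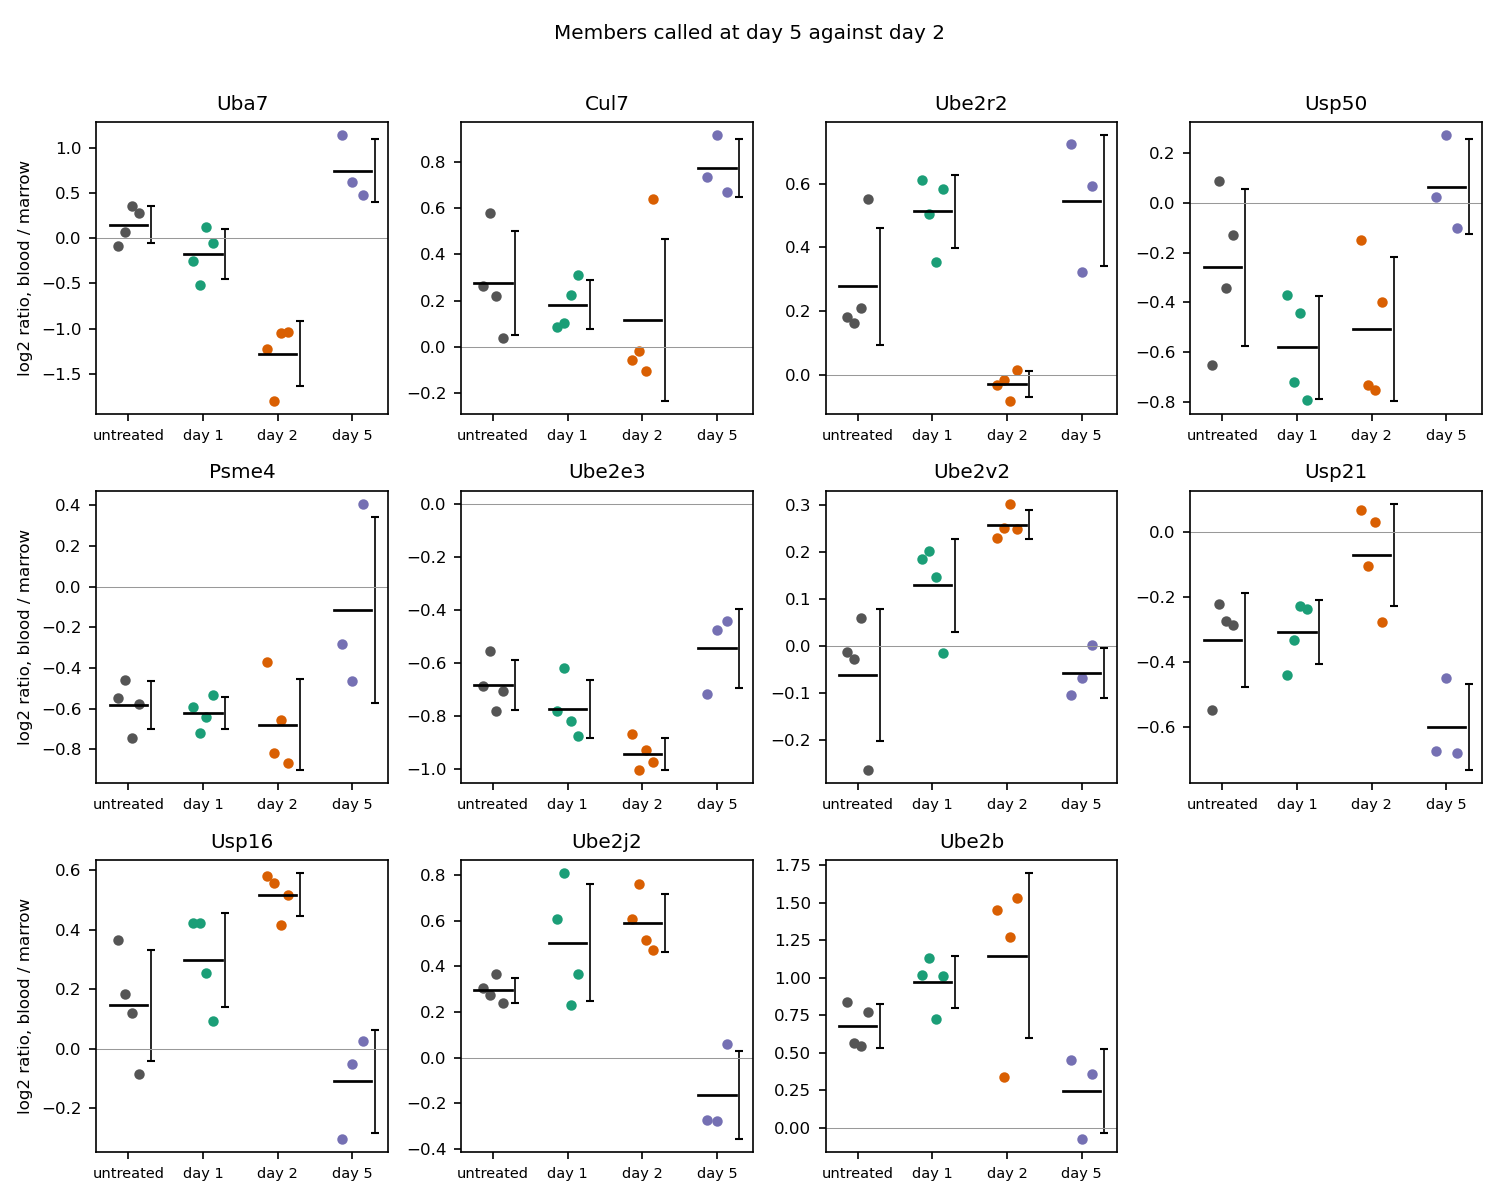
Log2 ratio of blood over marrow in each sample (points), with group means (lines) and SD (bars), for the 11 genes called at day 5 against day 2, ordered by change. Uba7, Cul7, Ube2r2, Usp50, Psme4 and Ube2e3 are higher at day 5 than at day 2, and Ube2v2, Usp21, Usp16, Ube2j2 and Ube2b are lower.

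Of the 4 tested cullins, Cul4a fell at day 1. Cul4a, the scaffold of ligases that bind their targets through Ddb1, stood at -1.94, -1.91, -1.77 and -1.83 at day 1, against -1.34, -1.30, -1.52 and -0.95 in untreated samples. All day 1 samples lay below the untreated ones, with a change of -0.59 (SE 0.16, adjusted p = 0.0474). The call was lost without any 1 of the 4 untreated samples, without day 1 replicate 1, 2 or 4 and without day 5 replicate 1, with an adjusted p of up to 0.263 over all alternatives. Its relative Cul4b was not called on any day against untreated blood.

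Cul7 was higher at day 5 than at day 2. It stood at 0.74, 0.91 and 0.67 at day 5, against -0.06, -0.02, -0.10 and 0.64 at day 2. The groups did not overlap, although day 2 replicate 4 lay next to the day 5 samples, and the change was 0.66 (SE 0.17, adjusted p = 0.00995). The largest uncalled change of a cullin at day 2 was that of Cul2, 0.39, where 1 sample stood at 1.43 and the others at -0.28 and 0.00.

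The 13 tested genes grouped as deubiquitinases were placed there by their Usp names. Their activity was not measured, and Usp18 among them removes ISG15. None was called against untreated blood on any day, where 4.60%, 12.7% and 1.09% of all features were. Their largest uncalled change at day 1 was -0.47 for Usp33. Between day 5 and day 2, 3 of the 13 were called (23.1%), near the 25.5% of all features. Usp16 and Usp21, both of which remove ubiquitin from histone H2A, were lower and Usp50 higher. Usp16 stood at -0.30, -0.05 and 0.03 at day 5, against 0.58, 0.55, 0.42 and 0.52 at day 2, with a change of -0.63 (SE 0.13, adjusted p = 0.00213). Usp21 stood at -0.67, -0.45 and -0.68 at day 5, against 0.07, -0.10, 0.03 and -0.28 at day 2, with a change of -0.53 (SE 0.12, adjusted p = 0.00429). Neither pair of groups overlapped. Usp50 was 0.57 higher (adjusted p = 0.0351), and this call was lost without day 2 replicate 2 or 3 or day 5 replicate 1 or 2.

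The wider ubiquitin pathway, listed apart from the 58 genes, was called in shares at or below those of the array at day 1, day 2 and day 5 against day 2. Of 226 listed genes, 127 were on the array and 59 were tested. At day 1, 1 was higher, Skp1, an adaptor of cullin ligases, by 0.64 (adjusted p = 0.0436). At day 2, 4 were higher and 2 lower, among them the ligase Rnf19a by 0.82 (adjusted p = 0.0226) and Sae1. At day 5, 1 was lower, the ligase Peli1 by -0.72 (adjusted p = 0.0163). These are 1.69%, 10.2% and 1.69% of the 59, beside 4.60%, 12.7% and 1.09% of all features. Between day 5 and day 2, 8 were higher and 7 lower (25.4% of the 59, beside 25.5% of all features), the lower ones including Peli1 and Rnf19a, the second with -1.24.

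In untreated blood, 25 of the 58 genes stood above the marrow pool, as did 3103 of the 6515 tested features. The highest were Psmb10 at 0.80 ± 0.24 and Ube2b at 0.68 ± 0.15, and the lowest Ube2t at -1.54 ± 0.77, Cul4a at -1.28 ± 0.24 and Usp14, a deubiquitinase bound to the proteasome, at -1.25 ± 0.15 (SD, n = 4 each). Both tested immunoproteasome beta subunits stood above the pool, and all 4 tested standard beta subunits below it, between -0.35 and -0.19. A dye effect and the level in the pool cannot be told apart from these levels. Uba1y, the second E1 tested, lies on the Y chromosome, and the labels give no sex. It is a close relative of Uba1, and whether its probe separates the 2 was not tested.

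**Figure D5:**
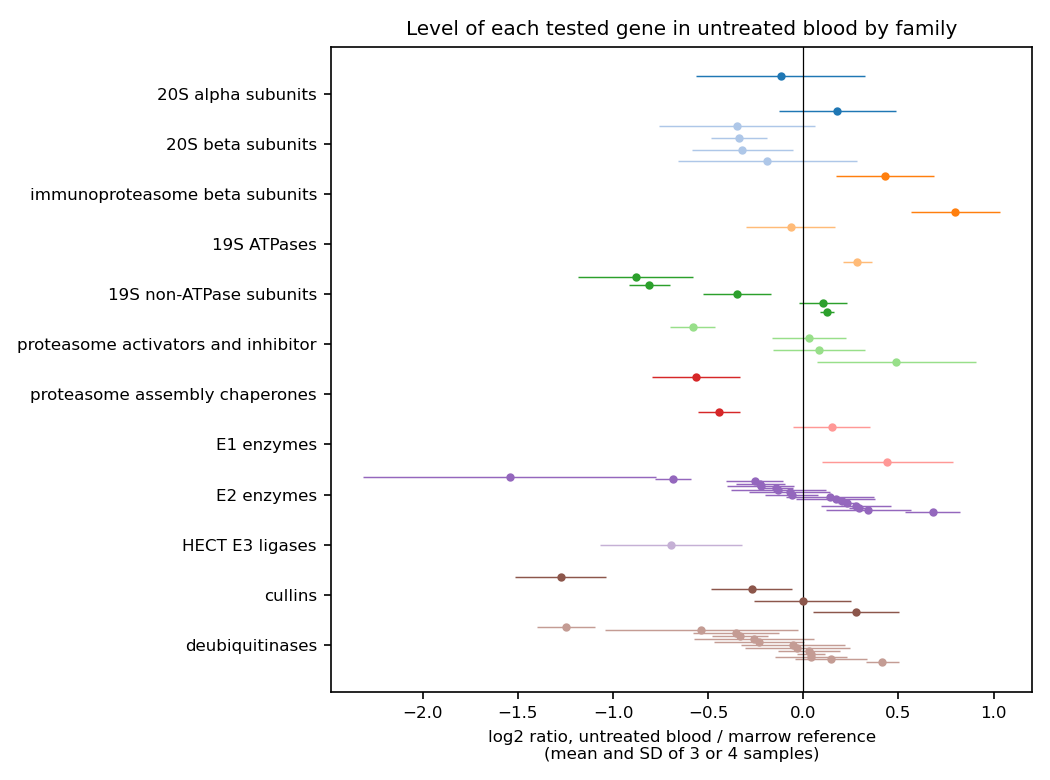
Mean log2 ratio of untreated blood over the marrow pool for each tested gene (points) with its SD over 3 or 4 samples (lines), by family. Immunoproteasome beta subunits lie above 0 and standard 20S beta subunits below it.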

How the data were processed

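The authors' deposited values are log2 ratios of Cy5 (blood) over Cy3 (marrow pool) per probe, per the labels' dyes. Their scanner, background correction, normalization and filter, and the logarithm's base are not given in the sources; base 2 was assumed. No counts or scanner files were used, so the number of arrays limits the precision. Of 13443 probes, 10032 had 1 gene symbol in the platform annotation. Technical replicates were averaged per probe and then probes per gene, giving 13027 features. limma 3.58.1 in R 4.3.3 (lmFit, eBayes, 1 mean per group over 15 samples) was run on the 6515 tested features, with Benjamini-Hochberg adjustment within each comparison, and genes were called at an adjusted p under 0.05. The procedure was tested on simulated data. Changes are the first-named group minus the second. P-values of limma set the difference of group means against the spread between these samples, moderated over all tested features. Same-numbered samples of different groups deviated together (r over 0.1) in 7 of 21 pairs, and differently numbered ones in 19 of 63. The labels state no pairing, so numbers were not used as a block. Motif positions count back from the start site. Pair differences used exact permutation tests (scipy 1.17.1).

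The genes, lists, motifs and pair differences were chosen with earlier results of these data known. Named genes were those called, the 3 largest uncalled changes on each day, the immunoproteasome and ISG15 enzymes, and the highest and lowest untreated level of each family. Alternatives changed the normalization between columns, the filter on missing values, the technical replicate, the replicate block, the samples in the fit, the prior, and left out each sample in turn.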

Additional observations from a re-analysis of the deposited data

Results flagged for a closer look

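Among 86 groups of 4 values of the named genes, 5 held a sample far from the other 3, and chance gives about 1 in 20. Ube2f stood at -0.14 in day 1 replicate 2, where the others lay between -0.26 and -0.24, and at 0.25 in untreated replicate 1, where the others lay between 0.18 and 0.19. Cul2 stood at 0.25 in day 1 replicate 3, against -0.11 to -0.05 in the others. Cul7 stood at 0.64 in day 2 replicate 4, against -0.10 to -0.02 in the others. Ube2r2 stood at 0.55 in untreated replicate 4, against 0.16 to 0.21 in the others.

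The change of Uba7 from untreated blood was 0.59 at day 5 and -1.43 at day 2, and the difference between these days, 2.02, passed limma's test.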

How the results depend on the processing

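Of the 16 called changes against untreated blood or of day 5 against day 2, 7 kept their call in all 23 alternatives and 9 lost it in 1 or more; none changed direction. Those kept were Uba7 and Psmb10 at day 2 and Uba7, Ube2r2, Ube2j2, Usp16 and Usp21 at day 5 against day 2. The count at day 1, 2 genes, became 0 with at least 2 values per group, 0 with technical replicate 2 alone and 1 with technical replicate 1 alone or with a robust trended prior. The count at day 2, 3 genes, became 5 with complete values only, where 37 of the genes were tested, and 5 with the robust trended prior. At day 5, 1 gene was called after quantile normalization in place of 0. Day 5 against day 2 gave 5 calls in place of 11 when only those groups were fitted, which leaves fewer samples for the spread. With samples left out in turn, the counts ranged from 0 to 2 at day 1, from 2 to 5 at day 2, from 0 to 2 at day 5, from 8 to 15 for day 5 against day 2 (15 without day 5 replicate 3), and from 7 to 11 for any difference between the groups, where all samples gave 10. With the replicate block the counts were 0 at day 1, 3 at day 2, 0 at day 5, 9 for day 5 against day 2 and 7 for any difference; replicate numbers are only names here, with same-number correlations between -0.35 and 0.22. The causes of these shifts were not tested otherwise.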
